A study of Mus musculus with 8 samples.

Results

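The comparison set the non-targeted control libraries that carry GFP in their name, GFP from proliferating cells and GFP-D from differentiating cells, against the non-targeted libraries of the same states that do not, TRC from proliferating cells and 7 from differentiating cells. It used 4 of the 8 libraries of the series, 2 on each side, chosen by name alone, and the within-state differences were GFP minus TRC and GFP-D minus 7. All libraries came from neural progenitors of FvB/C57BL/6 mouse brain, the precursor cells that give neurons, astrocytes and oligodendrocytes. Proliferating cells were grown in N2 medium to which EGF and bFGF were added, each at 20 ng/ml, and differentiating cells were kept for 5 days in neurobasal medium with B27. The other 4 libraries were FUBP1-targeted and CIC-targeted, 1 of each in either state. Lentiviral hairpins and 3 days of puromycin selection are described in the labels for the FUBP1 knockdown, and nothing states what GFP, TRC and 7 stand for, which construct or culture each control came from, or whether GFP and GFP-D, or TRC and 7, were 1 line of cells. TRC and 7 form 1 side only because neither is GFP-named. Each name had 1 library per state, and separate cultures are not stated. A p-value here therefore speaks of how differences between library names change with state, a scatter that may be technical.

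Cells of the nervous system keep a record of the place where they arose. Homeodomain transcription factors set up this positional identity: Otx2 marks forebrain and midbrain, Six3 and Nkx2-1 parts of the ventral and anterior forebrain, Pax3 the dorsal neural tube, and the Hox genes the hindbrain and spinal cord. The genes of a Hox cluster lie along the chromosome in the order of the body levels at which they become active, from anterior to posterior, and their on or off state is kept through cell divisions by chromatin regulators.

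The promoter windows of 2 Hox genes that turned out to separate the libraries are given first, with those of 2 genes from the ATF4 stress list described further down, because Nupr1 and Chac1 share a short element. The sequences are RefSeq windows of the GRCm38.p6 build, 250 bases before to 50 after the annotated start, written 5′ to 3′ on the gene's own strand. Of the 57 genes called in the main test, 40 had such a window. In the Hox windows capitals mark matches, on either strand, to the GC box motif (GGGCGG), the motif TATAAA known as the TATA box, or the motif CCAAT bound by the factor NF-Y. In the Chac1 and Nupr1 windows they mark TGATGCAA, a composite C/EBP and ATF element, on either strand.
Hoxa9: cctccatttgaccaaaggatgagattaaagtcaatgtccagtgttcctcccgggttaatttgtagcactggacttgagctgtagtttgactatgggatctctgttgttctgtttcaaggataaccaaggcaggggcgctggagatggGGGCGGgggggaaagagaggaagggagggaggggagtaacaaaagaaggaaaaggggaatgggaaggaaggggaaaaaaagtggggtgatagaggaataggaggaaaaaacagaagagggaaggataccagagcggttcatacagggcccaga
Hoxa10: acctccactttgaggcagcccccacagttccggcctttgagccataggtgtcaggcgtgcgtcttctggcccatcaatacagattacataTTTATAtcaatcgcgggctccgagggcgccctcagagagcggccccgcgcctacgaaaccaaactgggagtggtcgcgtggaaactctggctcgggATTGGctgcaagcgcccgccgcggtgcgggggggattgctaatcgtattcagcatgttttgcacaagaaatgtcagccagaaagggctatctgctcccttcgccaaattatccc
Nupr1: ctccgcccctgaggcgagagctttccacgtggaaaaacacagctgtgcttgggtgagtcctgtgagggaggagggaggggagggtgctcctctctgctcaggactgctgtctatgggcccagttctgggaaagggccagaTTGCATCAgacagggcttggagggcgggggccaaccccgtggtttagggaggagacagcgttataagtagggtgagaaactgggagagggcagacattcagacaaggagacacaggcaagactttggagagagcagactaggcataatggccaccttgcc
Chac1: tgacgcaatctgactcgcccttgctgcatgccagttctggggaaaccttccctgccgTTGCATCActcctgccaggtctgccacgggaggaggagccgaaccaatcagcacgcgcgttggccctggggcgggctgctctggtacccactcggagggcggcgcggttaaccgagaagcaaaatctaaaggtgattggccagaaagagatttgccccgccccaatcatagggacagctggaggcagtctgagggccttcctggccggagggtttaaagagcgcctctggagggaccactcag
The windows lie at chr6:52227321-52227620 (Hoxa9, minus strand), chr6:52234890-52235189 (Hoxa10, minus strand, the nearer of 2 annotated starts to Hoxa9), chr7:126625421-126625720 (Nupr1, minus strand) and chr2:119350992-119351291 (Chac1, plus strand). Hoxa9 held 1 GC box, 103 bases before the start, and none of the other motifs. The Hoxa10 window held TATAAA once, 160 bases before the start, and CCAAT once, 64 bases before it. Of all 32851 windows, 35.66% held GGGCGG, 13.62% TATAAA and 37.41% CCAAT. A match is only a match of letters, and the table does not say which start was used.

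The GFP-named libraries correlated less with the other control of their state than the FUBP1 libraries did: Pearson's r of log2(FPKM + 1) was 0.914 between GFP and TRC and 0.927 between GFP-D and 7, against 0.98 between FUBP1 and TRC and 0.959 between FUBP1-D and 7. For CIC and TRC it was 0.891 and for CIC-D and 7 it was 0.946. These values are across genes and describe the libraries. FPKM, the number of fragments scaled by transcript length and by library total, summed to 541608 in GFP and 435046 in GFP-D, against 514610 in TRC and 433488 in 7, and 11077 and 11345 genes reached 1 FPKM in GFP and GFP-D, against 10945 in TRC and 11489 in 7. Fragment counts and thus depth are unknown. The progenitor markers Nes, Sox2, Fabp7, Vim and Hes1 were present in all 4. Sox2, a transcription factor of neural stem cells, was at 182 FPKM in GFP and 327 in GFP-D, against 116 in TRC and 300.2 in 7. Of the lists of other cell types, 12 of 15 microglial and 12 of 15 endothelial and pericyte genes stayed under 1 FPKM in all 8 libraries, with Cx3cr1, Csf1r, Ptprc, Cldn5 and Cdh5 at or near 0. Of the mesenchymal genes 5 of 15 did so, and of the ependymal and choroid plexus genes 5 of 13, a list that summed to 33.1 FPKM in GFP and 83.9 in GFP-D, against 20.98 in TRC and 49.7 in 7. The microglial list summed to 104 FPKM in GFP and 87.0 in GFP-D, against 27.9 in TRC and 74.2 in 7. The endothelial and pericyte list summed to 5.44 FPKM in GFP and 7.34 in GFP-D, against 6.25 in TRC and 6.05 in 7. Pdgfrb, a receptor of pericytes and fibroblasts, reached 5.59 FPKM in GFP-D and 0.407 in GFP and was listed at 0 in TRC and 7. Fubp1, which no control was meant to lower, was at 12.4 FPKM in GFP and 25.4 in GFP-D, against 50.2 in TRC and 24.8 in 7, so the difference of -1.93 log2 units in proliferating cells had no counterpart in differentiating ones (0.04). The FUBP1 library of proliferating cells held 34.8 FPKM, more than GFP, and FUBP1-D 21.6. Cic was at 33.8 FPKM in GFP and 35.3 in GFP-D, against 39.4 in TRC and 42.0 in 7. Neither gene passed the test below (limma adjusted p = 0.484 for Fubp1 and 0.85 for Cic).

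The GFP-named libraries differed from the other controls in both states in a small set of genes. Among them, transcription factors such as Hoxa10, Hoxa9, Otx2 and Pax3 were higher and Six3 and Nkx2-1 lower, as were genes of matrix and surface proteins such as Thbs2 and Pdpn (higher) and Col5a2 and Gpm6a (lower). On the log2(FPKM + 1) scale, 11968 genes had at least 1 FPKM in 2 or more libraries. A limma model with terms for state and for library name, fitted over all 8 libraries, called 57 of them at an adjusted p under 0.05 (0.476%), of which 37 were higher (0.309%) and 20 lower (0.167%) in the GFP-named libraries. All 57 differed by more than 1 log2 unit the same way in both states. At an unadjusted p under 0.05 there were 1401 genes. The spread in this test is how much the differences between names change with state, which includes the FUBP1 and CIC libraries. With the 4 control libraries alone, 1 residual degree of freedom was left and 22 genes were called, of which 18 were among the 57. Leaving out a GFP-named library ended every call: without GFP the smallest adjusted p was 0.083 and without GFP-D it was 0.0929. The differences of the 23 called genes among those named changed little, to between 0.92 and 1.15 times their size without GFP and between 0.85 and 1.08 times without GFP-D. Without TRC 24 genes were called, and without 7, 33. Only the 23 called genes among those named were followed 1 by 1 through the alternatives. Of them, Hoxa9, Hoxa10, Otx2, Thbs2, Slc43a3 and Gatm kept their call under every other alternative run. Under these other alternatives the calls of Pdpn, Tmc3, Irx1 and Bcas1 were lost only with no filter. That of Srpx2 was lost there and without the CIC libraries, and that of Timp1 under 8 of them. With the 4 control libraries alone Pax3 (limma adjusted p = 0.0508), Lcn2 (0.0519), Col5a2, Gpm6a, Gpx3 and Emp1 (0.0667 each), Cdkn2a (0.0764), Timp1 (0.096) and Soga3 (0.126) lost theirs. Counting this fit, the other alternatives that ended a call numbered 2 for Pax3, Lcn2 and Six3, and 3 for Cdkn2a, Col5a2 and Ndn. They numbered 4 for Gpm6a, Gpx3 and Emp1, 5 for Nkx2-1 and 7 for Soga3. An exact permutation of the names within the 2 pairs cannot give a p under 0.5.

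Of any size, 3263 genes (27.3%) were higher in both states and 3509 (29.3%) lower. Counted without a test, 430 genes (3.59%) were past 1 log2 unit the same way: 244 genes (2.04%) were more than 1 log2 unit higher in both states and 186 (1.55%) more than 1 lower in both, against 72 (0.602%) that went past 1 log2 unit in opposite ways, 62 of them higher in GFP than in TRC and lower in GFP-D than in 7. Within a state, 1061 genes (8.87%) lay above and 876 (7.32%) below by that size in proliferating cells, and 499 (4.17%) above and 645 (5.39%) below in differentiating cells. Across the 11968 genes the differences in the 2 states had a Pearson correlation of 0.35 and a Spearman correlation of 0.23. They share no library, but genes are not independent, so these are descriptions. A difference in effect between the states was not called for any gene by limma (smallest adjusted p = 0.206, 574 genes at an unadjusted p under 0.05).

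**Figure D1:**
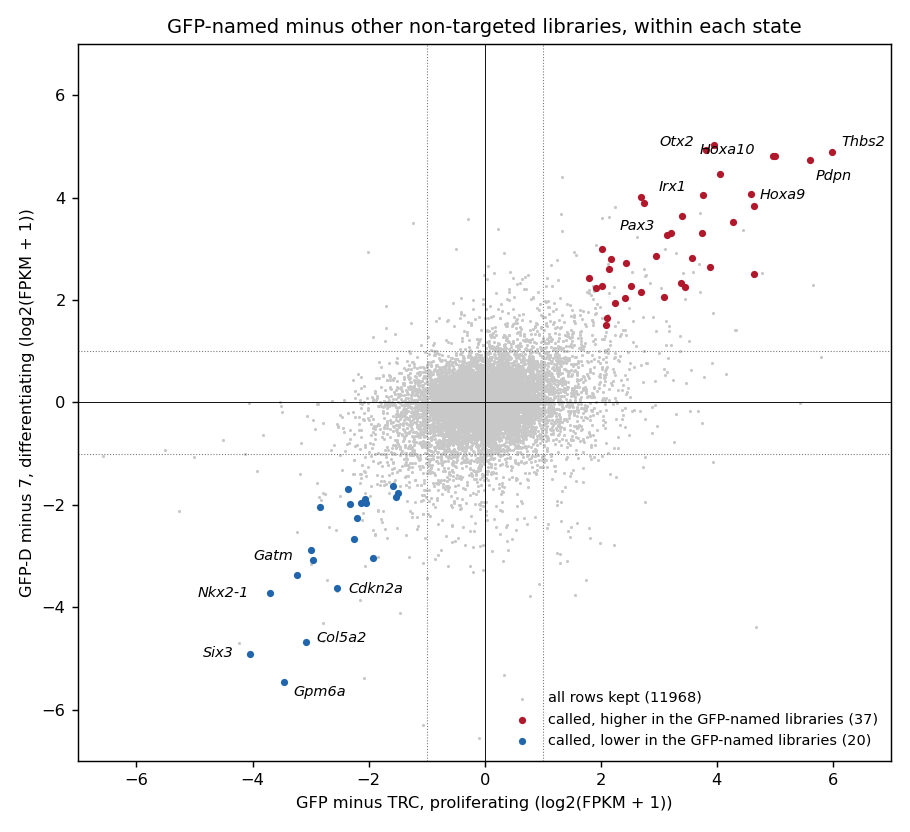
Each point is 1 of the 11968 genes, with GFP minus TRC (proliferating, log2(FPKM + 1)) across and GFP-D minus 7 (differentiating) upward; dotted lines mark 1 log2 unit. The 37 genes called higher lie in the upper right corner and the 20 called lower in the lower left, and the rest of the cloud is centred on 0.

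The Hoxa cluster on chromosome 6 differed at its posterior genes. Hoxa10 was at 39.1 FPKM in GFP and 38.3 in GFP-D, against 0.252 in TRC and 0.402 in 7. Its difference of 4.90 (SE 0.27, adjusted p = 0.00427) gave the smallest adjusted p of all genes. Hoxa9 was at 25.4 FPKM in GFP and 19.9 in GFP-D, against 0.0981 in TRC and 0.24 in 7, a difference of 4.33 (SE 0.27, adjusted p = 0.00542). For both genes the GFP-named libraries also lay far above the FUBP1 and CIC libraries, none of which exceeded 0.282 FPKM for Hoxa10 or 0.0483 for Hoxa9. The mm9 spans of the rows run from 52174052 to 52177369 (Hoxa9) and from 52181195 to 52190853 (Hoxa10) on chromosome 6 and overlap no other row.

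The rest of the cluster differed less. Hoxa6 was at 32.9 FPKM in GFP and 26.7 in GFP-D, against 6.77 in TRC and 3.27 in 7, and missed the test (2.41, SE 0.43, limma adjusted p = 0.095). Hoxa7 was at 38.3 and 24.1 FPKM in GFP and GFP-D, against 17.8 and 10.9 FPKM in TRC and 7 (1.07, SE 0.31, adjusted p = 0.253). Hoxa2 to Hoxa5 were present in all 8 libraries, none with an adjusted p under 0.35, and the row of Hoxa3 overlaps those of Hoxa4, Hoxa5 and Hoxa6, so their values are less certain. On the far side, Hoxa11 did not exceed 0.16 FPKM in any library and Hoxa13 did not exceed 0.0414. The neighbours outside the cluster did not follow it: Skap2 was at 191 FPKM in GFP and 127 in GFP-D, against 90.5 in TRC and 162 in 7, and Hibadh at 48.2 and 61.8, against 39.1 and 76.0. The 28 genes of the Hoxb, Hoxc and Hoxd clusters did not exceed 0.0404 FPKM in any library.

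**Figure D2:**
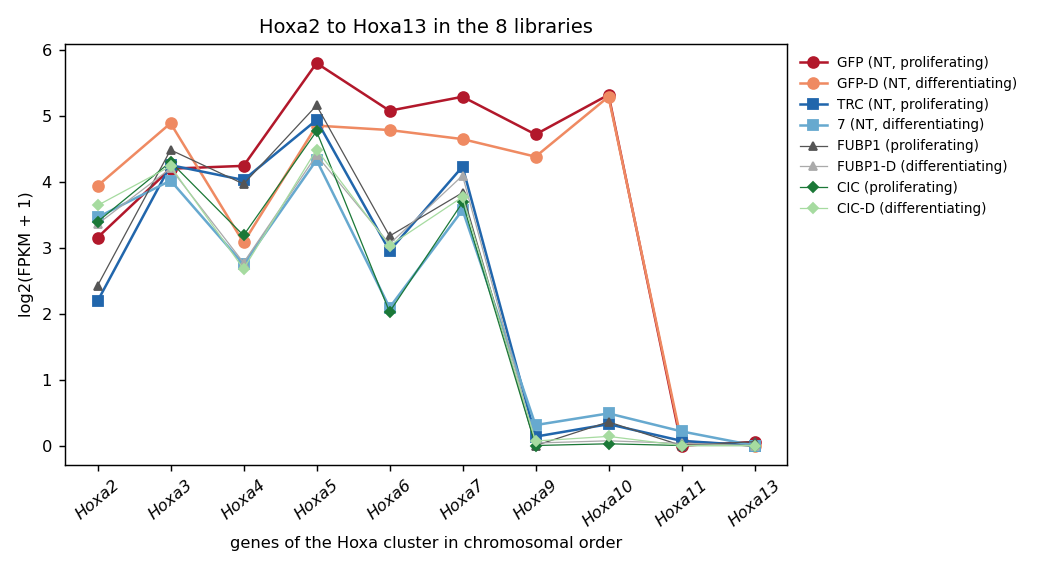
Expression of Hoxa2 to Hoxa13 (log2(FPKM + 1), upward) in chromosomal order, 1 line per library. All libraries express Hoxa2 to Hoxa7, GFP and GFP-D lie above the others at Hoxa6 and Hoxa7, and at Hoxa9 and Hoxa10 only GFP and GFP-D stay above 19 FPKM.

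Otx2, Pax3 and Irx1 were called higher in the GFP-named libraries too. Otx2 was at 13.1 FPKM in GFP and 32.2 in GFP-D, was listed at 0 in TRC and stood at 0.0856 in 7 (4.38, SE 0.35, adjusted p = 0.00542). Pax3 was at 7.88 and 8.58 FPKM in GFP and GFP-D, against 0.0103 in TRC and a listed 0 in 7 (3.20, SE 0.26, adjusted p = 0.00542). Irx1, an Iroquois homeodomain factor, was at 13.4 and 22.7 FPKM in GFP and GFP-D, against 0.0584 in TRC and 0.427 in 7 (3.91, SE 0.38, adjusted p = 0.0123). Irx1 was not near 0 in every other library, since CIC-D held 12.8 FPKM. The same direction past 1 log2 unit in both states was seen for Irx2, Irx3, Irx5 and Otx1, as for Hoxa7, none of them called. Outside the regional patterning list, the called genes included the homeodomain factors Prrx2 (16.7 and 36.4 FPKM in GFP and GFP-D, against 0.687 and 2.01 in TRC and 7) and Shox2, the helix-loop-helix factor Ebf3 and the developmental gene Mab21l1, all higher.

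The forebrain factors Six3 and Nkx2-1 fell. Six3 was at 0.105 FPKM in GFP and a listed 0 in GFP-D, against 17.3 in TRC and 29.1 in 7 (-4.48, SE 0.43, adjusted p = 0.0123). All 4 targeted libraries kept Six3, at 12.6 FPKM or more. Nkx2-1 was at 0.096 FPKM in GFP and 0.162 in GFP-D, against 13.3 in TRC and 14.3 in 7 (-3.71, SE 0.43, adjusted p = 0.0224). The Nkx2-1 call was lost without the CIC libraries (limma adjusted p = 0.0515), without TRC (0.108), without 7 (0.0537), at a pseudocount of 5 (0.0983) and with no filter (0.116). The Six3 call was lost at a pseudocount of 5 (0.0604) and with no filter (0.0878). For Nkx2-1 the targeted libraries split, with 6.04 and 20.8 FPKM in FUBP1 and FUBP1-D and 0.0393 and 0.179 in CIC and CIC-D. Emx2, a factor of the dorsal forebrain, was at 0.896 and 0.261 FPKM in GFP and GFP-D, against 10.1 and 15.2 in TRC and 7, and was not called (-3.12, SE 0.58, limma adjusted p = 0.106). It passed only without the FUBP1 libraries (limma adjusted p = 0.0338). Of 24 kept genes of the regional patterning list, which does not hold Hoxa9 or Hoxa10, 3 were called higher and 2 lower (0.309% and 0.167% of all genes were). Of the 24, 8 were more than 1 log2 unit higher and 3 lower in both states (2.04% and 1.55% of all genes were). The list's median was 0.91 in proliferating and 0.45 in differentiating cells, beside -0.02 and -0.01 over all genes. The other 27 list genes, most of them Hox genes of the other clusters, were not kept.

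**Figure D3:**
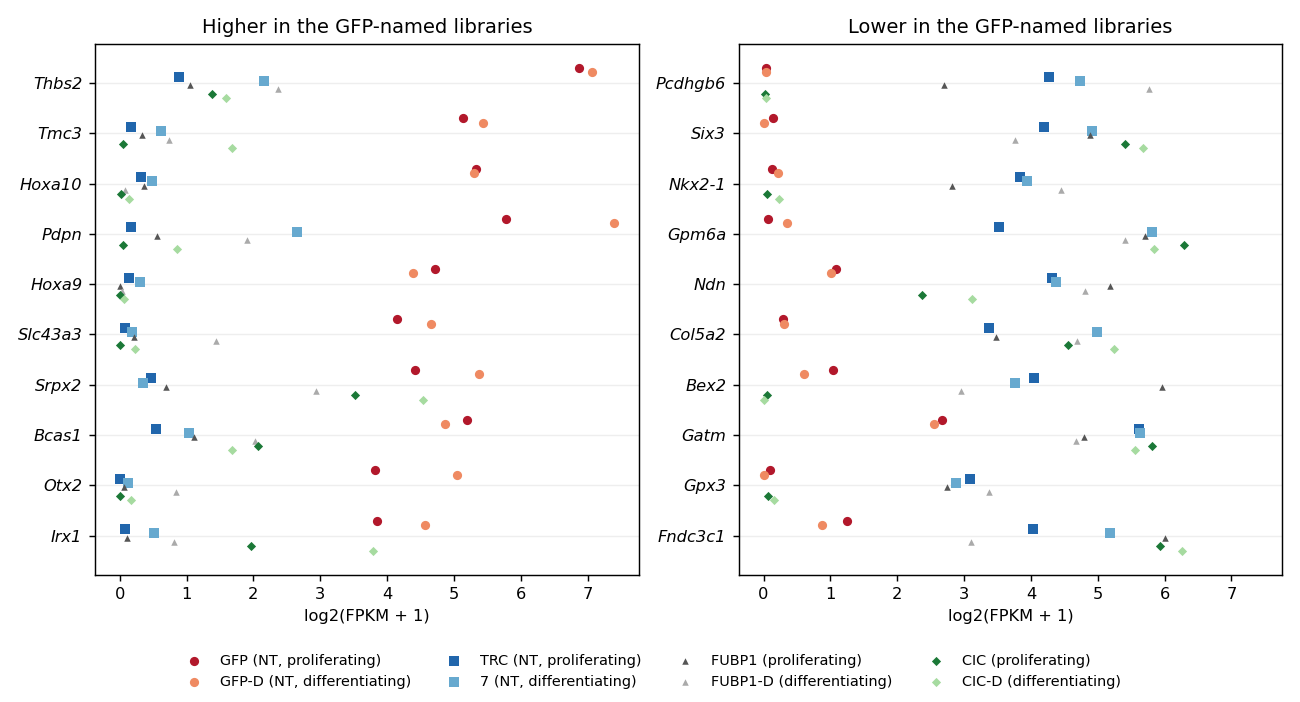
The 10 genes with the largest and the 10 with the most negative difference held in both states, by library (log2(FPKM + 1) across); circles are GFP and GFP-D, squares TRC and 7, and small symbols the FUBP1 and CIC libraries. In every row the circles stand clear of the squares, and the FUBP1 triangles lie nearer the squares in most rows while the CIC diamonds change sides.

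The other genes called higher included several of secreted and surface proteins. Thbs2, which encodes the matrix glycoprotein thrombospondin 2, was at 116 FPKM in GFP and 132 in GFP-D, against 0.849 in TRC and 3.49 in 7 (5.44, SE 0.38, adjusted p = 0.00542), the largest difference of any called gene. Pdpn, the surface mucin podoplanin, was at 53.6 and 167 FPKM in GFP and GFP-D, against 0.126 and 5.30 in TRC and 7 (5.17, SE 0.41, adjusted p = 0.00542). Il33, an alarmin cytokine, was at 187 FPKM in GFP and 111 in GFP-D, against 27.0 in TRC and 6.54 in 7 (3.32, SE 0.33, adjusted p = 0.0123). Lcn2, the lipocalin of reactive astrocytes, was at 55.4 FPKM in GFP and 849 in GFP-D, against 3.73 in TRC and 120 in 7 (3.19, SE 0.31, adjusted p = 0.0123). For Lcn2 the states differ more than the names, and the GFP library lies below 7, so the higher level appears only within a state. The inflammatory caspase genes Casp1 and Casp4, neighbours on chromosome 9, were both called higher, with Casp1 at 8.49 and 7.89 FPKM in GFP and GFP-D, against 0.22 and 0.223 in TRC and 7. Casp12, beside them, was 1.87 higher (SE 0.38) and missed the test (adjusted p = 0.129).

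Other genes called higher were Tmc3, a transmembrane channel-like gene, at 34.1 and 42.3 FPKM in GFP and GFP-D, against 0.123 and 0.534 in TRC and 7, the solute carrier gene Slc43a3, the secreted protein gene Srpx2, the oligodendrocyte lineage gene Bcas1, the lymphotoxin receptor gene Ltbr, the translation factor gene Eef1a2, the growth factor gene Fgf1, the laminin gene Lamb2, the cholesterol exporter gene Abca1, the monoamine oxidase gene Maob and Gas1, a membrane protein of hedgehog signalling. Of the 37, 16 lay under 1 FPKM in both TRC and 7, and the lowest GFP-named value among those 16 was 3.01 FPKM. In 28 of the 37 both GFP-named libraries lay above all 6 others, and in 31 both lay above TRC and 7 whatever the state.

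Among the 20 genes called lower, the cell cycle inhibitor gene Cdkn2a, which encodes p16 and p19ARF, stood at 0.863 FPKM in GFP and 0.741 in GFP-D, against 9.83 in TRC and 20.5 in 7 (-3.08, SE 0.32, adjusted p = 0.0151). Its neighbour Cdkn2b, which encodes p15, was at 13.2 and 1.74 FPKM in GFP and GFP-D, against 59.2 and 113 in TRC and 7, and was not called (-3.73, SE 0.72, adjusted p = 0.114). In CIC and CIC-D it was at 0.0523 and 0.175 FPKM. The nearest kept gene on the Cdkn2b side, Dmrta1, was at 3.11 and 0.964 FPKM in GFP and GFP-D, against 3.04 and 0.808 in TRC and 7. Of the genes on the Cdkn2a side, Mtap was at 211 and 57.1 FPKM in GFP and GFP-D, against 103 and 32.9 in TRC and 7, and Klhl9 at 36.1 and 38.8, against 33.7 and 52.2. Of the 17 kept genes of the list of CDK inhibitors, their kinases and the Rb family, Cdkn2a was the 1 called (0.476% of all genes were).

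Gatm, which encodes the first enzyme of creatine synthesis, was at 5.35 and 4.83 FPKM in GFP and GFP-D, against 48.2 and 48.5 in TRC and 7 (-3.02, SE 0.22, adjusted p = 0.00542). Gpm6a, a neuronal membrane glycoprotein gene, was at 0.0448 and 0.28 FPKM in GFP and GFP-D, against 10.5 and 55.1 in TRC and 7 (-4.45, SE 0.63, adjusted p = 0.0442). The Gpm6a call was also lost without the CIC libraries (limma adjusted p = 0.0665), at a pseudocount of 5 (0.175) and with no filter (0.173). Col5a2, a fibrillar collagen gene, was at 0.223 and 0.235 FPKM in GFP and GFP-D, against 9.38 and 30.7 in TRC and 7 (-3.88, SE 0.39, adjusted p = 0.0141). Ndn, the imprinted gene necdin, was at 1.13 and 1.02 FPKM in GFP and GFP-D, against 18.99 and 19.8 in TRC and 7 (-3.30, SE 0.32, limma adjusted p = 0.0123). The Ndn call was lost without TRC (difference -3.27), without 7 (-3.32) and with no filter (limma adjusted p = 0.0852). Gpx3, a secreted glutathione peroxidase gene, was at 0.0689 FPKM in GFP and a listed 0 in GFP-D, against 7.49 in TRC and 6.39 in 7 (-2.94, SE 0.30, adjusted p = 0.0149), and was equally low in CIC (0.0456) and CIC-D (0.116). Emp1, a membrane protein gene, the protease inhibitor gene Timp1, the protocadherin gene Pcdh9 and the Wnt receptor gene Fzd3 were also called lower. In all 20 both GFP-named libraries lay below TRC and 7, and in 15 they lay below all 6 other libraries.

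Some of the genes with the most negative differences missed the test. Pcdhgb6, a clustered protocadherin, was at 0.0276 FPKM in GFP and 0.0207 in GFP-D, against 18.3 in TRC and 25.7 in 7 (-4.47, SE 0.72, adjusted p = 0.0744). It was at 5.51 and 53.6 FPKM in FUBP1 and FUBP1-D and near 0 in CIC and CIC-D, and passed the test with the 4 control libraries alone (limma adjusted p = 0.0337) and without the FUBP1 libraries (0.00887). Members of this cluster share exons, so the assignment of reads to 1 of them is uncertain. Of the 35 kept clustered protocadherins none was called, and their median difference was -0.04 in proliferating and -0.09 in differentiating cells. Bex2, Fndc3c1 and the basement membrane collagen gene Col4a1 were also lower in both states and uncalled. Without the FUBP1 libraries Bex2 (limma adjusted p = 0.0174) and Fndc3c1 (0.0302) passed. Col4a1 was at 0.351 and 0.18 FPKM in GFP and GFP-D, against 7.88 and 12.1 in TRC and 7 (-3.10, SE 0.57, adjusted p = 0.102).

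The differences were also uneven along the genome, which was seen after the values were inspected and has no test. Of the 186 genes more than 1 log2 unit lower in both states, 34 lie on chromosome 14, or 8.54% of its kept genes, against 0.611% to 2.66% on each of the 18 chromosomes other than 7 and 14. Of the 244 that were higher, 32 lie on chromosome 7, or 3.52% of its kept genes, little above the highest of those others (chromosome 6, 3.14%). Along chromosome 14 the break came near 50 Mb (mm9). The 251 kept genes beyond it had a median difference of -0.72 in proliferating and -0.77 in differentiating cells, and 76.9% of them were lower in both states, against 29.1% of the 11255 genes outside this region and the one on chromosome 7. The 147 genes before it had medians of 0.0067 and -0.0047 and 25.2% lower in both. Among the genes at 5 FPKM or more the medians beyond the break were -0.74 and -0.79.

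The other region was on chromosome 7 from 80 Mb on. Its 462 kept genes had median differences of 0.37 in proliferating and 0.40 in differentiating cells, and 64.3% were higher in both states, against 26.2% outside both regions. The part before it had medians of 0.10 and 0.10. In windows of 10 Mb with 20 or more genes, 3 of 3 beyond the chromosome 14 break were under -0.5 in both states, and none of the 198 windows elsewhere was. The other 18 chromosomes had medians between -0.13 and 0.08 in proliferating cells and between -0.16 and 0.06 in differentiating cells. The targeted libraries did not share the chromosome 14 shift: its distal medians were -0.07 and 0.01 for FUBP1 minus TRC and FUBP1-D minus 7, and -0.16 and -0.09 for CIC minus TRC and CIC-D minus 7. FUBP1 minus TRC had a median of 0.25 on distal chromosome 7 and 0.28 on the rest of it, while FUBP1-D minus 7 had 0.02 and 0.04. DNA copy number was not measured here. Of the called genes, Pcdh9, Fzd3 and Kpna3 lie in the chromosome 14 region and were lower, while 3632451O06Rik near its start was called higher, as was Otx2 just before it. Rb1, the retinoblastoma gene, lies there too, at 8.45 and 10.3 FPKM in GFP and GFP-D, against 13.6 and 36.2 in TRC and 7, and was not called (limma adjusted p = 0.231). In the chromosome 7 region 4 genes were called, all higher: Tmc3, Ebf3, Prss23 and Me3. Among genes described below, Nupr1 lies in the chromosome 7 region, and Fdft1 and Nefl lie in the one on chromosome 14.

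**Figure D4:**
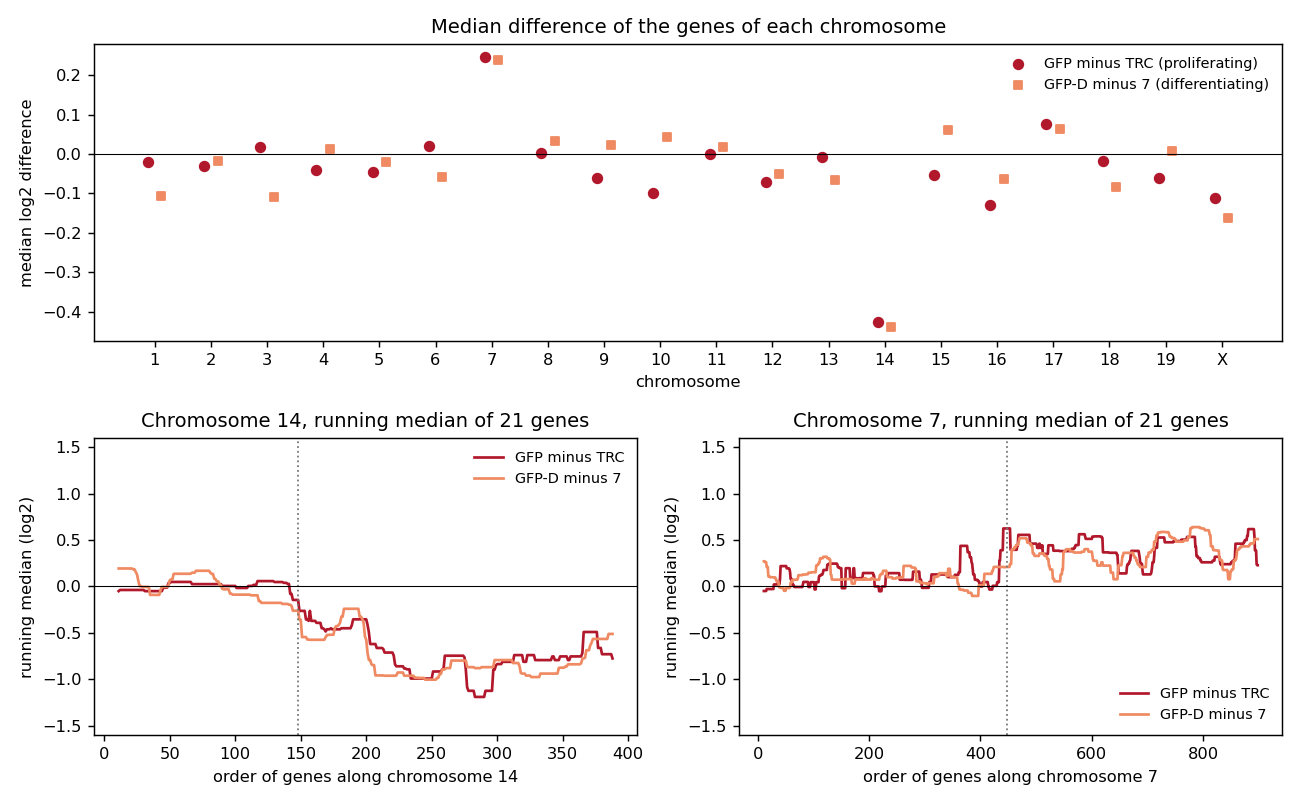
Upper panel, the median log2 difference of the kept genes of each chromosome; lower panels, running medians of 21 genes in order along chromosomes 14 and 7, with the dotted line at the start of the region described. Both states lie below 0 beyond the line on chromosome 14, with medians of -0.72 and -0.77, and above 0 beyond the line on chromosome 7, with medians of 0.37 and 0.40.

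No gene of cholesterol synthesis was called, though most had lower values in the GFP-named libraries. All 23 kept genes of the list had a negative estimate, 19 were lower in both states (29.3% of all genes were) and 6 by more than 1 log2 unit (1.55% of all genes), 4 were higher in GFP-D than in 7, and the medians were -1.65 in proliferating and -0.61 in differentiating cells. Cyp51, a sterol demethylase gene, was at 25.6 and 6.09 FPKM in GFP and GFP-D, against 116 and 18.6 in TRC and 7 (-1.80, SE 0.27, limma adjusted p = 0.0544). Cyp51 passed at a pseudocount of 0.1 (limma adjusted p = 0.0467) and with quantile scaling (0.046). Idi1, Fdft1 and Stard4 were also past 1 log2 unit in both states. In CIC and CIC-D these genes were also lower than in TRC and 7, with Idi1 at 21.5 and 7.73 FPKM in CIC and CIC-D, against 172 and 20.9 in TRC and 7. Genes of mitosis were all 44 lower by estimate, but with medians of -1.63 in proliferating and -0.18 in differentiating cells, and none was called. In both states 30 of the 44 were lower (29.3% of all genes were). DNA replication genes had medians of -0.71 and 0.04, again with no call among 40.

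Targets of ATF4, the transcription factor of the response to amino acid shortage and to stress in the endoplasmic reticulum, mostly had higher values. Of 30 kept genes 26 had a positive estimate, 20 were higher in both states (27.3% of all genes were) and 4 by more than 1 log2 unit (Nupr1, Chac1, Trib3 and Slc7a5, where 2.04% of all genes were), and none was called. The medians were 0.71 and 0.44. Higher values were not particular to the GFP-named libraries. The list's mean log2(FPKM + 1) was 5.74 in GFP and 4.94 in GFP-D, against 4.73 in TRC and 4.52 in 7. It was 7.10 in CIC and 5.06 in CIC-D, and 4.72 in FUBP1 and 4.25 in FUBP1-D. Chac1, a glutathione-degrading enzyme gene, was at 10.03 FPKM in GFP and 13.2 in GFP-D, against 0.629 in TRC and 1.58 in 7 (2.61, SE 0.62, adjusted p = 0.165). Without the CIC libraries, where it was at 29.9 and 6.63 FPKM, Chac1 passed (limma adjusted p = 0.037). Nupr1, a stress-induced nuclear protein gene, was at 277 and 220 FPKM in GFP and GFP-D, against 88.3 and 66.4 in TRC and 7 (1.68, SE 0.37, adjusted p = 0.145). The element TGATGCAA lies 110 bases before the start of Nupr1 and 193 bases before that of Chac1 in the windows printed above. It was found in the windows of 6 of the 24 kept list genes that had one (Atf3, Chac1, Slc7a11, Vldlr, Nupr1 and Aars), against 59 of all 9006 kept genes with a window (0.66%) and 0.89% of all 32851 windows. Since the list was drawn up as ATF4 targets, this share says nothing about the GFP-named libraries. Trib3 and Slc7a5 were not among the genes found to hold the element. Vldlr and Slc7a11 hold the element and were higher in GFP than in TRC but lower in GFP-D than in 7.

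Interferon-stimulated genes went opposite ways in the 2 states. Their 43 kept members had a median of 1.07 for GFP minus TRC, with 41 higher, and of -1.45 for GFP-D minus 7, with 42 lower, and none was called either for the common difference or for the difference between states. Over all genes these medians were -0.02 and -0.01. Of the 43, 1 was higher and 2 were lower in both states, where 27.3% and 29.3% of all genes were. MHC class I antigen presentation genes showed the same signs, with medians of 1.23 and -0.58 over 23 genes, and p53 targets had 0.80 and -0.26 over 22. In the interferon and MHC lists the 2 GFP-named libraries lay between TRC and 7: the mean log2(FPKM + 1) of the interferon list was 3.47 in GFP and 3.26 in GFP-D, against 2.37 in TRC and 4.88 in 7.

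Cell type lists gave few calls in number, where 0.476% of all genes were called. Among reactive astrocyte genes Lcn2 was called higher and Emp1 and Timp1 lower, of 24 kept. Among astrocyte genes none of 22 was called, and the list was mixed, with 10 positive and 12 negative estimates. Its medians were 0.19 in proliferating and -0.45 in differentiating cells, and 16 of the 22 were lower in GFP-D than in 7. In both states 1 gene was more than 1 log2 unit higher and 3 were lower. The higher one was Aqp4, the water channel, at 13.3 FPKM in GFP and 258 in GFP-D, against 2.85 in TRC and 77.5 in 7 (1.81, SE 0.38, adjusted p = 0.134). Among the lower ones were Slc4a4 (-2.78, SE 0.68, limma adjusted p = 0.178) and Aldoc (-2.16, SE 0.54, limma adjusted p = 0.185). Of 27 neural progenitor genes Otx2 was called higher and Nkx2-1 lower, and 6 were more than 1 log2 unit lower in both states (1.55% of all genes were). Among the 6 was Prom1, which encodes CD133, at 0.0376 and 0.277 FPKM in GFP and GFP-D, against 3.61 and 17.5 in TRC and 7 (limma adjusted p = 0.13). Of 12 kept oligodendrocyte lineage genes Bcas1 was called higher and none lower, while 8 had a negative estimate. In both states 1 of the 12 was more than 1 log2 unit higher and 2 were lower (Cspg4 and Lhfpl3). Of 48 collagen and matrix genes Thbs2 was called higher and Col5a2 and Timp1 lower. Nefl, a neurofilament gene, was highest in TRC among the controls: it was at 13.1 and 0.94 FPKM in GFP and GFP-D, against 537 and 7.40 in TRC and 7. The mesenchymal list summed to 350.3 FPKM in GFP and 66.9 in GFP-D, against 511 in TRC and 84.2 in 7, most of it S100a4, Prrx1 and Fbln2, while Col1a1, Col1a2 and Lum stayed under 1 FPKM in all libraries. The Y-linked genes Eif2s3y and Ddx3y were present in all 8 libraries, with Eif2s3y at 9.33 FPKM in GFP and 9.50 in GFP-D, against 4.55 in TRC and 20.5 in 7. The part of these levels in the results was not tested, and in bulk RNA fewer cells of a type cannot be told apart from less RNA per cell.

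**Figure D5:**
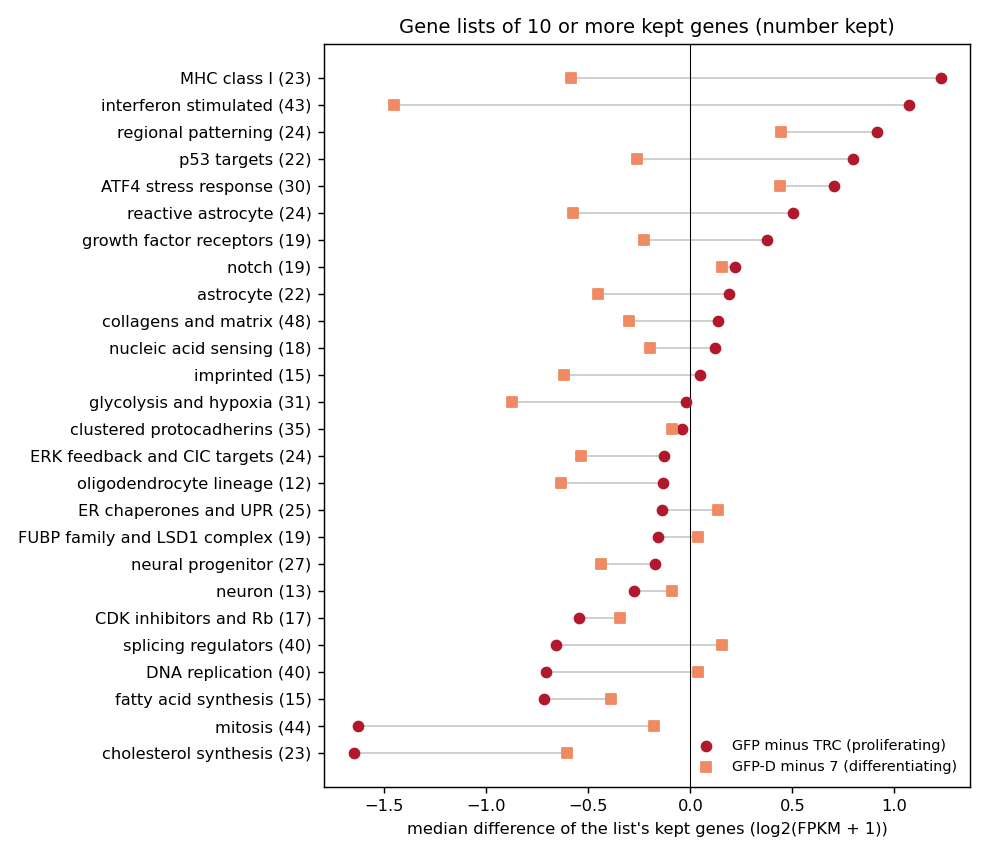
Median difference of each gene list with 10 or more kept genes, GFP minus TRC as circles and GFP-D minus 7 as squares (log2(FPKM + 1)). Cholesterol synthesis lies left of 0 and regional patterning and ATF4 targets right of 0 in both states, whereas the interferon and MHC lists change sign.

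The FUBP1 and CIC libraries were placed on either side of the midpoint between the 2 controls of their state. Of the 244 genes higher in both states, FUBP1 and FUBP1-D both lay on the side of TRC and 7 in 177 (72.5%) and both on the GFP-named side in 5, while CIC and CIC-D both lay on the side of TRC and 7 in 139 (57.0%) and on the GFP-named side in 35 (14.3%). Of the 186 lower genes the counts were 147 (79.0%) and 6 for FUBP1, and 76 (40.9%) and 72 (38.7%) for CIC. These libraries are compared with controls that chose the genes, so the counts are a description.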

How the data were processed

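RNA of 8 libraries was prepared with a TruSeq kit after Trizol extraction, per the labels' protocols. Per the submitters' processing notes, bcl2fastq 2.17, cutadapt, TopHat2 2.0.11 and Cufflinks 2.1.1 were used with mm9. The authors deposited 1 table of FPKM values for 20793 rows. The sources used here name neither the use of strand nor read counts. Overlapping rows and antisense partners cannot be told apart, and no depth interval is given. Low values held no shared step that would return whole reads.

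Values were set as log2(FPKM + 1), and the 11968 rows that reached 1 FPKM in at least 2 libraries entered the tests. limma 3.58.1 (R 4.3.3, trended moderation) was fitted with state and name as terms over all 8 libraries, leaving 3 residual degrees of freedom. p-values were adjusted by Benjamini-Hochberg over all kept rows at 0.05, and the procedure was tested on simulated data. A gene's difference is the mean of the 2 within-state differences. Named genes were the 10 highest and 10 lowest by the smaller of the 2 within-state differences, up to 10 called genes a direction, up to 4 genes a list by p plus called members, the targeted genes with Kdm1a, Cdkn2a and Pcdhgb6, and the 5 largest opposite differences. Others, among them Hoxa6, the genes beside Hoxa and Cdkn2a, and the chromosome regions, were chosen after their values were seen. The comparison and the gene lists were chosen with earlier results of these data known. State served as the pairing of libraries, and replicate numbers come from accession order. Alternatives changed the samples, the pseudocount, the filter, the scaling and the moderation. Some genes are not reported here.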

Additional observations from a re-analysis of the deposited data

Results flagged for a closer look

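Of the 72 genes past 1 log2 unit in opposite ways in the 2 states, the 5 with the largest difference between the states are given, and none was called for that difference (limma adjusted p = 0.206 for Amd1 and 0.95 or more for the others). The estimate given is the GFP-named difference in differentiating minus proliferating cells, set against the state change of the other names. Amd1, a polyamine synthesis gene, was at 25.5 FPKM in GFP and 0.07 in GFP-D, against 0.04 in TRC and 21.2 in 7 (-8.38). Ifit3, an interferon-induced gene, was at 5.73 and 10.3 FPKM in GFP and GFP-D, against 1.30 and 152 in TRC and 7 (-3.98). Ifi44, also interferon-induced, was at 5.81 and 1.00 FPKM in GFP and GFP-D, against 1.02 and 21.1 in TRC and 7 (-2.99). Cxcl1, a chemokine gene, was at 77.5 and 38.4 FPKM in GFP and GFP-D, against 4.17 and 87.5 in TRC and 7 (-2.53). Galnt15, a glycosyltransferase gene, was at 3.91 and 1.39 FPKM in GFP and GFP-D, against 0.05 and 15.6 in TRC and 7 (-3.22).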

How the results depend on the processing

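With 2 libraries a side, the number of calls depended on the settings. Against 57 calls (37 higher, 20 lower), limma on the 4 control libraries alone gave 22 (17 and 5), and leaving out 1 control library at a time gave 0 to 33 (0 to 26 higher, 0 to 7 lower). It gave 0 without GFP (838 genes at an unadjusted p under 0.05) and 0 without GFP-D (1482 genes). A lone library was then assumed to vary like the other groups. Without the CIC libraries 11 were lower (29 higher). With no filter there were 17 (14 and 3), and at 5 FPKM or more 24 were higher (14 lower). A pseudocount of 0.1 gave 32 lower (31 higher) and one of 5 gave 11 lower (38 higher). Higher genes made up 64.9% of the calls, 49.2% at a pseudocount of 0.1 and 77.6% at 5. Genes past the size limit the same way in both states numbered 56 higher and 26 lower at 2 log2 units (3 opposite), and 754 and 680 at 0.5 (508 opposite). A pseudocount of 0.1 gave 402 lower and 143 opposite, and one of 5 gave 116 higher, 54 lower and 26 opposite.

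No called named gene changed direction. Uncalled ones that did were Fbln2 (-0.13 without GFP, -0.24 without TRC), Amd1 (-4.04 and -1.70 in the same fits), Ifit3 (0.89 without GFP-D, 0.45 without 7), Ifi44 (0.64 and 1.12), Galnt15 (1.32 and 1.45, and 0.66 at a pseudocount of 0.1), Cd68 (-0.17), Kdm1a (0.023) and Cxcl1 (-0.75) without TRC, and Rsad2 (0.27), Kdm5d (0.30), Uty (0.39), Prrx1 (0.031) and Dynlrb2 (0.044, and 0.051 at a pseudocount of 0.1) without 7. The cause was not tested. Quantile and median-of-ratios scaling, the second chosen after seeing the data, kept the distal chromosome 14 medians between -0.78 and -0.72 and those of chromosome 7 between 0.35 and 0.44. Depth is unknown, so values near 0 FPKM carry no stated limit.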
